A study of Mus musculus with 6 samples.

Results

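Interferon response genes are the genes that cells switch on when an interferon, a secreted alarm protein, binds its receptor. The 44 genes described here were chosen by name, and all 44 were found among the 48709 genes of the deposited table. They fall into 25 targets of type I interferon, 3 cytoplasmic RNA sensors, 5 transcription factors, 10 GTPases of the interferon-gamma response and the chemokine Cxcl10. Earlier results of these data were known when they were chosen.

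The cells, invariant natural killer T (iNKT) cells, carry a nearly fixed T cell receptor that sees lipids and were sorted by flow cytometry from mouse spleen. The labels describe 3 samples from wild-type (WT) mice and 3 from Gpx4 cKO mice, all in the resting state with no further treatment; Gpx4 is the enzyme that detoxifies lipid peroxides, and the series title ties it to ferroptosis. The labels do not say which Cre line, strain, age or sex was used, or whether animals were pooled. The table names its 6 libraries only by the numbers 18 to 23 and an index pair, and 0 of the 6 names match a label. No library was therefore assigned to a genotype, no WT and Gpx4 cKO samples were compared, and every value below is given per library.

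The libraries held 903524 (library 21) to 10122187 (library 19) exon reads, with 1916746 in library 23 and 5406110 to 8020374 in the others. Gpx4 itself lay between 3.20 and 31.3 counts per 1000000 reads (CPM) and, without a map from libraries to labels, checks no label. All 8 iNKT and T cell markers (among them Zbtb16, Cxcr6 and the Trav11 receptor segment, of whose reads only 0.124% were unique) were read in every library, and their summed level ran from 3363 to 4816 CPM. Summed B cell markers ran from 272 to 897 CPM, most of it Ighm, and summed red cell markers from 4.34 (library 18) to 289 (library 23). In bulk libraries, fewer cells of a type and less RNA per cell cannot be told apart.

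Type I interferons (interferon alpha and beta) act through the receptor Ifnar and the kinases Jak1 and Tyk2, which activate a factor containing Stat2 and Irf9 that binds the interferon-stimulated response element (ISRE) and turns on antiviral genes. Interferon-gamma, which iNKT cells themselves secrete, acts through Ifngr, Jak1 and Jak2 on genes that carry the gamma-activated site (GAS). The GTPases of the Gbp and Irg families answer mainly to interferon-gamma and attack the membranes around parasites and bacteria inside cells. The 2 programmes overlap, since many targets answer to both interferons.

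The letters that the 2 factors recognise were common in the DNA in front of these genes, the GTPases above all. Promoter windows (250 bases before to 50 after the start) were found in the RefSeq table of GRCm38.p6 for 34 of the 44 genes. The ISRE was searched as GAAA, any 2 bases and GAAA again (TTTC, 2 bases, TTTC on the other strand) and the GAS as TTCNNNGAA, which reads the same on both strands. An ISRE match lay in 21 of the 34 windows, or 61.8%, against 3.99% of all 27025 genes in that table. A GAS match lay in 13, or 38.2%, against 9.55% of all, and both lay in 9, against 0.614% of all. All 8 GTPases with a window held an ISRE match and 5 also held a GAS match, whereas 8 of 18 type I targets held an ISRE match, 6 a GAS match and 3 both. Both RNA sensors with a window, 2 of the 5 transcription factors and Cxcl10 held an ISRE match. The 2 kinds of match overlapped in 1 member, Bst2. A match is a run of letters and was not tested as a binding site.

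Stretches of 120 bases that end just before the start show these arrangements, 5′ to 3′ on the gene's own strand, with ISRE and GAS matches in capitals (RefSeq, build GRCm38.p6). Ifit1 (chr19:34640769-34640888, plus strand) and Isg15 (chr4:156200819-156200938, minus strand) stand for type I targets with ISRE letters alone. Gbp2 (chr3:142620543-142620662, plus strand) and Gbp7 (chr3:142530216-142530335, plus strand) are guanylate-binding proteins, the former with ISRE letters alone in this stretch and the latter with GAS letters further out.
Ifit1: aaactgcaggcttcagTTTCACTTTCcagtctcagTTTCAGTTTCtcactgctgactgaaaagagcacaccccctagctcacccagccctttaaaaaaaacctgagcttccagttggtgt
Isg15: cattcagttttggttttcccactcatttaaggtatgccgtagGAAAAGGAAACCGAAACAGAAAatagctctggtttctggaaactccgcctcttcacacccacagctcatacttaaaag
Gbp2: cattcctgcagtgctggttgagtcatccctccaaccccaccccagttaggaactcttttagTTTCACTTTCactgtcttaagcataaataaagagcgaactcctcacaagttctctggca
Gbp7: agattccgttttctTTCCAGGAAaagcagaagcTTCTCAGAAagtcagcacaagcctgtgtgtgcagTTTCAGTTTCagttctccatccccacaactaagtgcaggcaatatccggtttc

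In 4 GTPases of the Irg family a GAS match was followed by an ISRE match with 2 bases between, an arrangement noticed after the matches had been seen. They are Igtp (chr11:58199436-58199555, plus strand), Irgm2 (chr11:58214857-58214976, plus strand), Tgtp1 (chr11:48992247-48992366, minus strand) and Tgtp2 (chr11:49064213-49064332, minus strand).
Igtp: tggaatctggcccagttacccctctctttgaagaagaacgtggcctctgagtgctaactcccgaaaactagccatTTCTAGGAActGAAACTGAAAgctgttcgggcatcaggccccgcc
Irgm2: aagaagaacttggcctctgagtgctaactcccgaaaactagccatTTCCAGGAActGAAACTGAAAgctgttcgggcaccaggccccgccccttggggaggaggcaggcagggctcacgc
Tgtp1: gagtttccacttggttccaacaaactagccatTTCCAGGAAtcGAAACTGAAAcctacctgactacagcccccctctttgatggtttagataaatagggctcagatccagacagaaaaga
Tgtp2: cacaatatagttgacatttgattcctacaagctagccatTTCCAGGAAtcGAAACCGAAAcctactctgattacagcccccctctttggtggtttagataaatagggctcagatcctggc

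The GAS match began at position -45 in Igtp, -75 in Irgm2, -88 in Tgtp1 and -81 in Tgtp2, counted from the RefSeq start. For Irgm2 and Tgtp1 the printed stretch lies inside the gene span used for the read counts. Those spans run from 58199618 to 58222782 (Irgm2) and from 48985327 to 48994172 (Tgtp1). The same arrangement occurred in 5 of the 27025 genes, or 0.0185%, the fifth being Gm12185, and in none of the 18 type I targets. Some of these windows share long runs and are not independent sequences: the longest run was 61 bases between Igtp and Irgm2, 27 between Tgtp1 and Tgtp2 and 114 between Tgtp2 and Gm12185. Between Igtp or Irgm2 and Tgtp1 or Tgtp2 it was 11 to 20 bases.

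**Figure D1:**
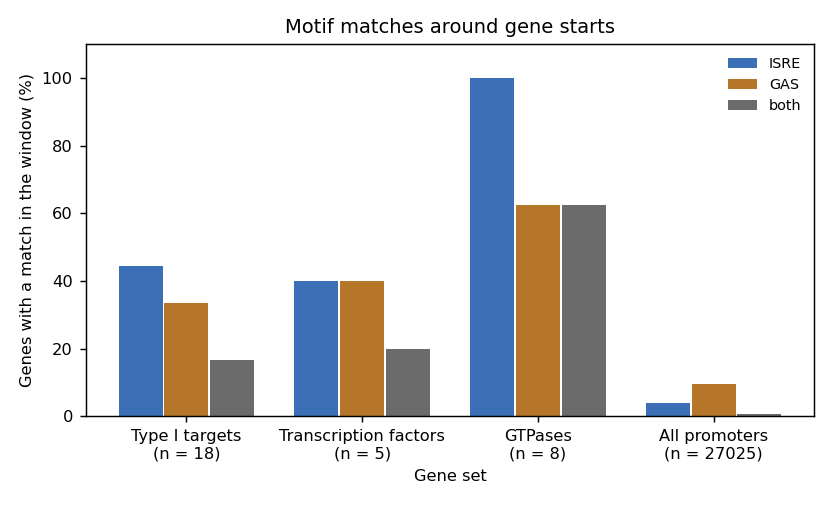
Bars give the share of genes (percent, y axis) whose promoter window holds an ISRE match, a GAS match or both, for type I targets, transcription factors, GTPases and all genes of the RefSeq table (x axis). The 8 GTPases stand at 100% for the ISRE and 62.5% for the GAS, beside 3.99% and 9.55% of all genes.

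Interferon response genes were read in every library, and the 10 listed GTPases had the highest median level of the classes. Each of the 44 had at least 1 exon read in all 6 libraries, 37 had a median level of at least 10 CPM and 13 of at least 100 CPM. CPM was taken from exon reads after library sizes were adjusted for composition by the TMM method, and is compared only between libraries. Levels of different genes are compared by the deposited RPKM, which is per length of transcript. The median RPKM of a gene over libraries had a median of 14.3 among the 10 GTPases, 5.39 among the 25 type I targets, 10.4 among the 5 transcription factors and 5.17 among the 3 sensors, beside 4.68 over all 9042 genes with at least 200 reads. The lead of the GTPases depends on which were listed: 10 further Gbp and Irg genes outside the 44 had a median of 4.77 RPKM, below that of the type I targets.

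The highest of the 44 was Igtp, a regulatory GTPase of the Irg family, at 45.7, 73.7, 39.3, 54.1, 52.4 and 58.1 RPKM in libraries 18 to 23 in that order, and the lowest was the antiviral Oasl2, with a median of 0.293 RPKM. The 10 GTPases ran from 2.86 (Iigp1) to 53.3 RPKM (Igtp) in their medians. The type I targets ran from 0.293 to 26.5 RPKM, the top being Dtx3l, a ubiquitin ligase that partners Parp9. Their best-known antiviral effectors were low: the 14 genes of the Ifit, Isg, Oas, Mx, Rsad2 and Usp18 kind, a grouping made after the values were seen, had a median of 2.82 RPKM, and the highest median over libraries among them was 9.14 (Ifit3), against a median of 7.50 for the other 11 targets.

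**Figure D2:**
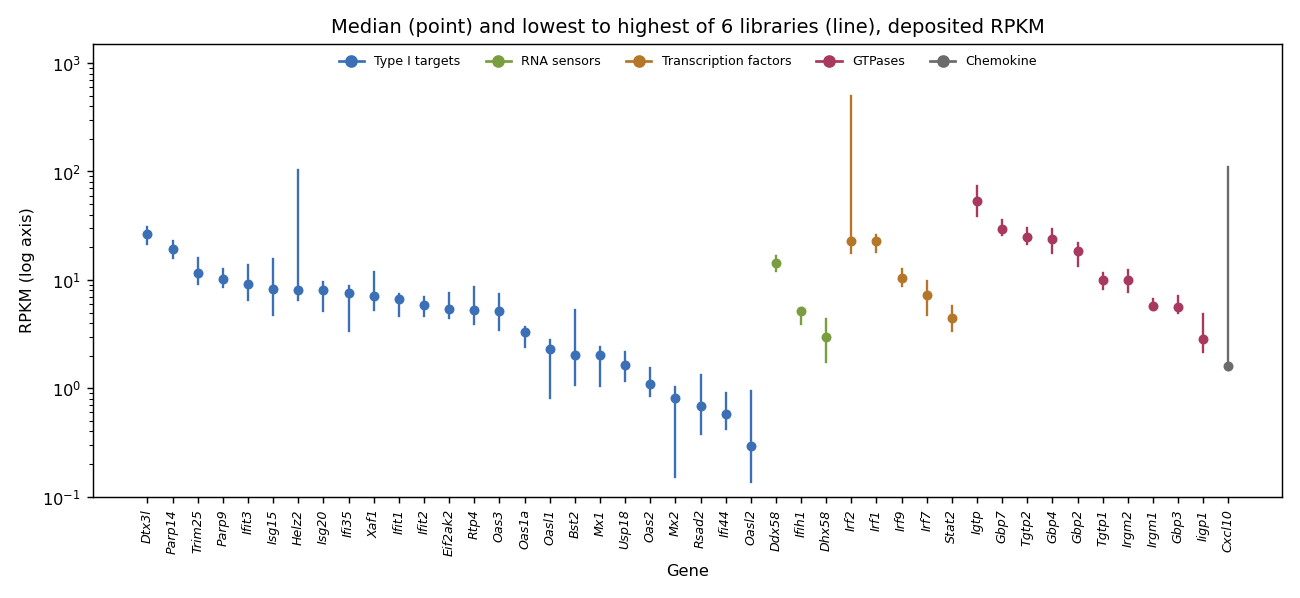
Points give the median and lines the lowest to highest deposited RPKM (log y axis) of each gene (x axis) over the 6 libraries, coloured by class. Igtp leads at 53.3 RPKM, Oasl2 is last at 0.293, and the 3 longest upward lines belong to Irf2, Helz2 and Cxcl10.

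Most of the genes varied between libraries by more than counting error but by less than 2-fold. A chi-square test of each gene's exon reads against the library sizes, with Benjamini-Hochberg adjustment over 9042 genes, called 34 of the 41 testable members at 0.05 (82.9%), beside 71.6% of all genes. It compares these libraries and takes counting error alone, so it says nothing of genotype, and Oasl2, Mx2 and Bst2 had too few reads (130 to 155 in all). The 7 not called were Ifit2, Oas1a, Mx1, Usp18, Ifi35, Ifih1 and Irgm1, with adjusted p from this chi-square test of 0.0728 (Oas1a) to 0.564 (Ifit2).

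The highest library exceeded the lowest by more than 2-fold in 12 of the 41 (29.3%), near the 27.1% of all genes. These were 8 of 22 type I targets (36.4%) and 1 of 10 GTPases (10%), and the median ratio of highest to lowest was 1.83 and 1.39 in the 2 classes, beside 1.58 for all genes. Depth moves with that count: among genes with at least 1000 reads in all, 1 of 12 type I targets (Helz2) and 0 of 9 GTPases passed 2-fold, beside 9.82% of all such genes. The difference between the classes was not tested. Without library 23 the count over 2-fold was 7, and by RPKM it was 16, for which shares of all genes are not given.

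**Figure D3:**
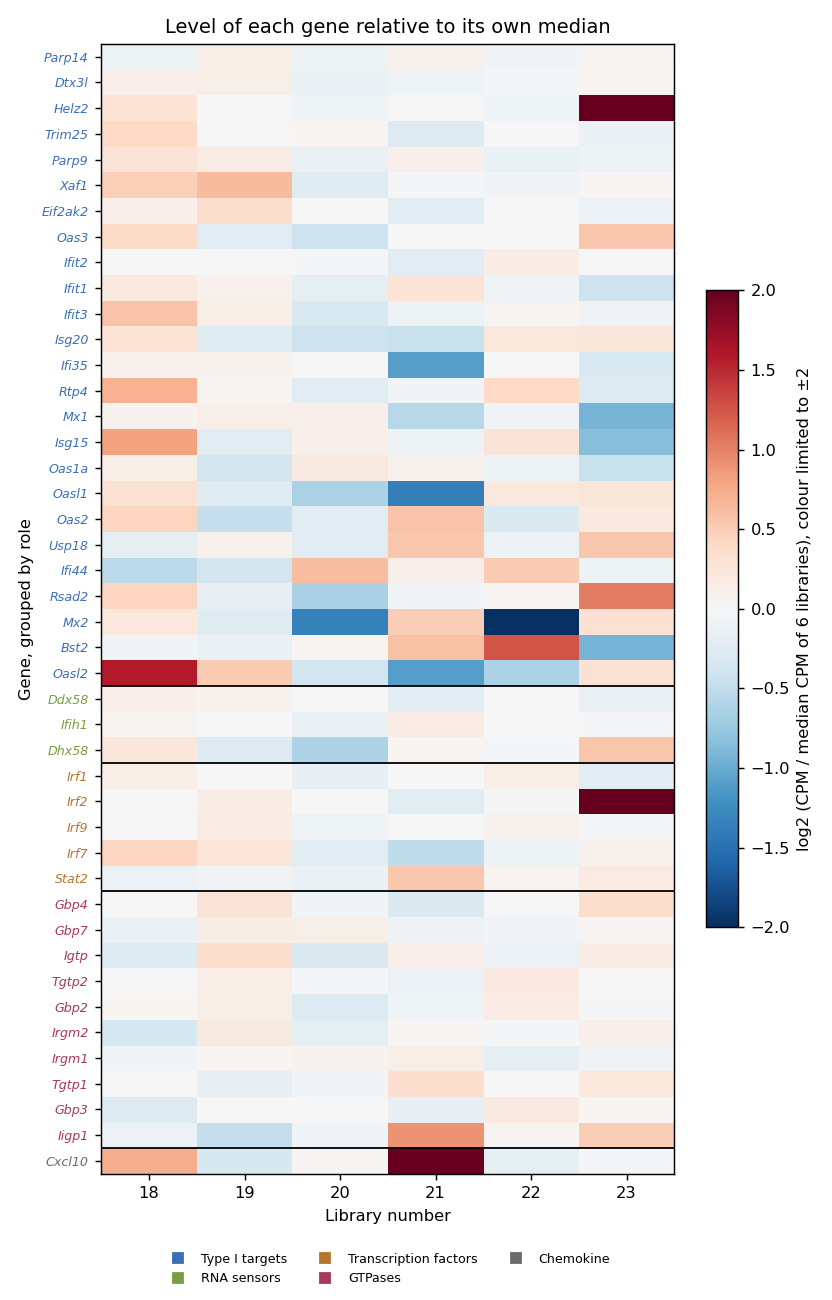
Colour gives log2 of each gene's CPM over its own median of the 6 libraries, limited to 2 either way, with genes in rows by class and libraries 18 to 23 in columns. The 3 deepest red cells are Irf2 and Helz2 in library 23 and Cxcl10 in library 21, and the deepest blue one is the sparsely read Mx2 in library 22 at 1.11 CPM.

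The abundant type I targets were close across libraries apart from Helz2. Parp14, an ADP-ribosyltransferase, stood at 356, 422, 358, 409, 368 and 399 CPM in libraries 18 to 23. Dtx3l stood at 342, 347, 294, 303, 312 and 330 CPM, and its partner Parp9, which starts from the opposite strand and overlaps it by 682 bases, at 130, 122, 100, 117, 100 and 102 CPM. Each of these varied beyond counting error, yet in none was any library far from the others.

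Trim25, the ubiquitin ligase that activates the sensor Ddx58, was highest in library 18, at 193, 147, 150, 122, 145 and 134 CPM, and its 95% exact Poisson interval there lay above those of all 5 other libraries. Leaving out library 18 ended its call (adjusted p = 0.219, chi-square). Xaf1, a pro-apoptotic protein, stood at 98.3, 109, 60, 68.8, 68.3 and 72.8 CPM, with libraries 18 and 19 above the rest. Helz2, a helicase and nuclear co-activator, stood at 232, 191, 181, 193 and 181 CPM in libraries 18 to 22 and at 2588 CPM in library 23.

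The widest ranges among the other tested type I targets were those of Oasl1, Rsad2, Isg15 and Ifi35, all read at low depth. Isg15, a ubiquitin-like protein attached to other proteins, stood at 24.8, 12.2, 15.3, 13.3, 17.0 and 7.91 CPM, from 206, 130, 84, 11, 92 and 15 reads (adjusted p = 4.6e-10, chi-square). Library 18 was highest and library 23 lowest, 3.14-fold apart. Oasl1, which holds back translation of Irf7, stood at 15.4, 10.5, 8.0, 4.83, 14.4 and 14.8 CPM, a ratio of 3.19 (adjusted p = 0.000385, chi-square), of which the lowest value rests on 4 reads. Rsad2, or viperin, which makes a chain-terminating nucleotide, stood at 8.43, 5.56, 4.0, 6.03, 6.46 and 12.7 CPM, a ratio of 3.16 (adjusted p = 0.00107, chi-square). Its highest library was 23, from 24 reads, where Isg15 was lowest, so the measured values of these effectors did not share 1 order. Counting error was wide: the Rsad2 interval in library 23 (8.11 to 18.8 CPM) overlapped that in library 18 (6.57 to 10.7 CPM). Likewise the Isg15 interval in library 23 (4.43 to 13.0 CPM) overlapped that in library 19 (10.2 to 14.5 CPM). Ifi35 stood at 30.5, 29.9, 28.4, 13.3, 28.8 and 23.2 CPM, a ratio of 2.30 that the test did not call (adjusted p = 0.0866, chi-square), its lowest value resting on 11 reads.

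Of the other type I targets, the RNA-binding Ifit1, Ifit2 and Ifit3 lay between 26.9 and 55.2 CPM in all libraries, the kinase Eif2ak2 between 51.9 and 77.1 and the synthetase Oas3 between 43.6 and 84.4. Isg20, an exonuclease, ran from 22.9 to 37.7 CPM and Rtp4 from 19.5 to 38.4, while Mx1, an inhibitor of influenza viruses, ran from 8.44 to 17.4. Oas1a lay between 10 and 15.5 CPM, Oas2 between 7.72 and 15.7, Usp18, a brake on the type I receptor, between 7.82 and 13.3 and Ifi44 between 5.42 and 12.2. Among those too shallow to test, Oasl2 stood at 7.71 CPM in library 18 from 64 reads and at 1.21 to 3.67 CPM elsewhere. Mx2 lay between 1.11 and 8.45 CPM and Bst2, a tether of budding virions, between 2.11 and 9.60. Ifit3 and Oas1a share reads with near copies, since 80.9% and 58.5% of their exon reads were unique.

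Library 18 was the highest of the 6 for 8 of the 22 tested type I targets (36.4%), beside 12.2% of all genes, and for 0 of the 10 GTPases. Library 19 was the highest for 3 of the 10 GTPases, beside 14.6% of all genes. With library sizes left as total exon reads it was the highest for 6, with no share of all genes given for that setting. The TMM factor of library 19, 1.05, is the largest, so leaving it out raises every gene there relative to the other libraries. The 8 type I targets led by library 18 were Ifit3, Isg15, Isg20, Oasl1, Rtp4, Ifi35, Trim25 and Parp9, and 7 of them varied beyond counting error. The excess was small: library 18 exceeded the median of the other 5 by 1.87-fold for Isg15, 1.68-fold for Rtp4 and 1.55-fold for Ifit3, and by 1.07-fold for Ifi35. Only for Trim25 did its interval clear those of all other libraries. This pattern was noticed in the values and not tested. Library 18 also had the lowest summed red cell markers, at 4.34 CPM, with library 19 close to it at 4.80 CPM.

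Of the RNA sensors, Ddx58 and Dhx58 varied beyond counting error and Ifih1 was not called. Ddx58 (RIG-I), which detects viral RNA ends, stood at 241, 234, 223, 194, 225 and 203 CPM (adjusted p = 0.00627, chi-square), with library 21 lowest. Ifih1 (MDA5), the sensor of long double-stranded RNA, stood at 89.6, 86.4, 77.6, 96.5, 86.0 and 84.9 CPM and was not called (adjusted p = 0.261, chi-square). Dhx58 (LGP2), which tunes the other two, stood at 24.6, 17.6, 13.8, 21.7, 20.5 and 31.1 CPM, with library 23 highest and a ratio of 2.25.

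Among the transcription factors all 5 varied, beside 71.6% of all genes, and Irf2 stood apart. Irf1, an activator induced by interferon-gamma, stood at 209, 191, 172, 193, 210 and 167 CPM. Irf9, the DNA-binding part of the ISRE complex, stood at 122, 135, 114, 121, 130 and 118 CPM. Its partner Stat2 stood at 36.5, 38.3, 36.2, 57.9, 41.0 and 44.3 CPM, with library 21 highest and an adjusted p of 0.047 (chi-square) that rose to as much as 0.45 under other scalings or without a library. Irf9 likewise lost its call without library 19 or without library 20, with an adjusted p of at most 0.249 (chi-square). Irf7, the factor that amplifies interferon alpha, stood at 62.3, 54.8, 39.5, 32.6, 43.2 and 49.0 CPM, highest in library 18. Irf2, mostly a repressor of the same sites, stood at 173, 192, 171, 147 and 170 CPM in libraries 18 to 22 and at 3974 CPM in library 23.

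Of the 10 GTPases, 9 varied beyond counting error (90%, beside 71.6% of all genes) and Iigp1 alone passed 2-fold (10%, beside 27.1%). Gbp4 stood at 365, 441, 356, 302, 371 and 472 CPM and Gbp7 at 328, 395, 387, 333, 345 and 372 CPM. Both belong to the guanylate-binding proteins, and library 23 was highest for Gbp4 but not for Gbp7. The gene span of Gbp4 shares 23774 bases with that of Gbp8 and 23773 with that of Gbp9, all on the same strand. Gbp2 stood at 103, 109, 82.4, 94.1, 112 and 97.0 CPM, and its call was lost without library 20 (adjusted p = 0.264, chi-square).

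Of the Irg family, Igtp stood at 194, 295, 192, 251, 216 and 258 CPM (adjusted p = 8.69e-57, chi-square), with library 19 at 285 to 306 by its 95% exact Poisson interval and libraries 18 and 20 lowest. Irgm2, its neighbour and the overlapping gene on chromosome 11, stood at 61.9, 89.5, 69.1, 80.9, 76.6 and 84.9 CPM, again with library 19 highest and library 18 lowest. Their gene spans share 7974 bases on the same strand, so reads there cannot be assigned by strand. Tgtp2 stood at 158, 171, 153, 145, 179 and 156 CPM. Its near copy Tgtp1 lay between 59.6 and 84.5 CPM. Only 60.5% of the Tgtp2 reads and 51.6% of the Tgtp1 reads were unique, and on unique reads neither was called (adjusted p = 0.0814 and 0.364, chi-square).

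Iigp1, which loads onto parasite vacuoles, was the GTPase with the widest range, at 17.3, 13.5, 18, 35.0, 19.6 and 26.4 CPM (adjusted p = 7.4e-06, chi-square). Library 21 was highest and library 19 lowest, 2.60-fold apart, and the highest value rests on 29 reads with an interval of 23.4 to 50.3 CPM. Irgm1, the regulator of the family, lay between 65.2 and 79.6 CPM and was not called (adjusted p = 0.169, chi-square), and Gbp3 lay between 34.8 and 47.1 CPM. Igtp and Iigp1 thus had different highest libraries.

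Cxcl10, Irf2 and Helz2 were each in large excess in a single library. In excess means over 8 times the next highest library plus 1 CPM, with at least 50 reads. That held for 3 of the 41 tested members, beside 0.453% of all genes, and the excess lay in library 23 for Irf2 and Helz2 (0.0774% of all genes are in excess there) and in library 21 for Cxcl10 (0.332%). These are the 2 shallowest of the 6 libraries.

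Irf2 (ENSMUSG00000031627, GRCm38 chr8:46739732-46847458, plus strand) had 7537 exon reads in library 23, or 3974 CPM with a 95% exact Poisson interval of 3884 to 4064, 20.7 times the next library. Its RPKM was 502 there and 17.8 to 26.8 elsewhere. Intron reads did not follow: 13.0% of its reads were intronic in library 23 and 70.8 to 74.8% in the others, and its intron reads, scaled to CPM of all intron reads, were 684 against 456 to 587. Helz2 (ENSMUSG00000027580, chr2:181227615-181242027, minus strand) had 4909 exon reads in library 23, or 2588 CPM with an interval of 2516 to 2661. Its intron reads scaled that way were 8.53 there and 6.42 to 9.54 elsewhere. The exon counts were thus many times higher, while the intron counts of both genes were at most 1.36 times the median of the other libraries.

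Cxcl10 (ENSMUSG00000034855, chr5:92346638-92348889, minus strand), which draws T cells to inflamed tissue, stood at 9.76, 4.71, 6.0, 409, 5.17 and 5.80 CPM, from 81, 50, 33, 339, 28 and 11 reads. Library 21 lay 86.9 times above the lowest library, with an interval of 367 to 455 CPM. Its intron reads numbered 6, 7, 5, 4, 8 and 6, and scaled to CPM of all intron reads they were highest in library 21, at 5.11 against 0.761 to 3.66, or 5.68 times the median of the others. With so few intron reads that value is imprecise. The whole span of Cxcl10, 2252 bases, also lies within Art3 on the opposite strand, a gene with 30 exon reads in all. Reads of the 2 genes there cannot be told apart without strand. Without the highest library the ratio of highest to lowest fell to 2.07 for Cxcl10, 1.3 for Irf2 and 1.28 for Helz2.

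Markers of the cells best known for Cxcl10 and interferon did not all move with it. Of 11 macrophage and monocyte markers, 7 were at 0 in library 21 (Csf1r, C1qa, C1qb, C1qc, Cd14, Fcgr1 and Ms4a7), where a count of 0 allows up to 3.62 CPM. None of these exceeded 2.22 CPM in any library (Ms4a7, library 22), so their counts of 0 do not show absence. Of the 4 with a read, Cd68 (3.62 CPM) and Adgre1 (2.41 CPM) were highest in library 21, both near the floor, and Lyz2 was lowest there (1.21 CPM). All 11 markers summed to 124 CPM in library 21 and 72.3 to 203 CPM in the others. Without Ly6c2, which T cells also make, the sums were 7.24 and 7.25 to 8.18 CPM. Of 7 plasmacytoid dendritic cell markers, 2 were at 0 in library 21 (Klk1 and Cox6a2), and the sum without Ccr9 was 169 CPM there and 55.2 to 78.2 CPM in the others. In that list Siglech stood at 15.7 CPM in library 21 and 0.482 to 8.73 elsewhere, and Tcf4 at 96.5 and 5.74 to 18.5 CPM. Tcf4 thus made up most of the sum of 169 CPM. Its intron reads, scaled to CPM of all intron reads, did not rise, at 35.8 against a median of 56.2 in the others. Bcl11a was also highest in library 21, at 12.1 CPM, but Pacsin1 was highest in library 22 (53.7 CPM) and Ccr9 in library 19 (244 CPM). The part of such cells in the Cxcl10 level was not tested. In library 23, summed red cell markers were highest at 289 CPM, and their part in the levels of Irf2 and Helz2 was not tested either.

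**Figure D4:**
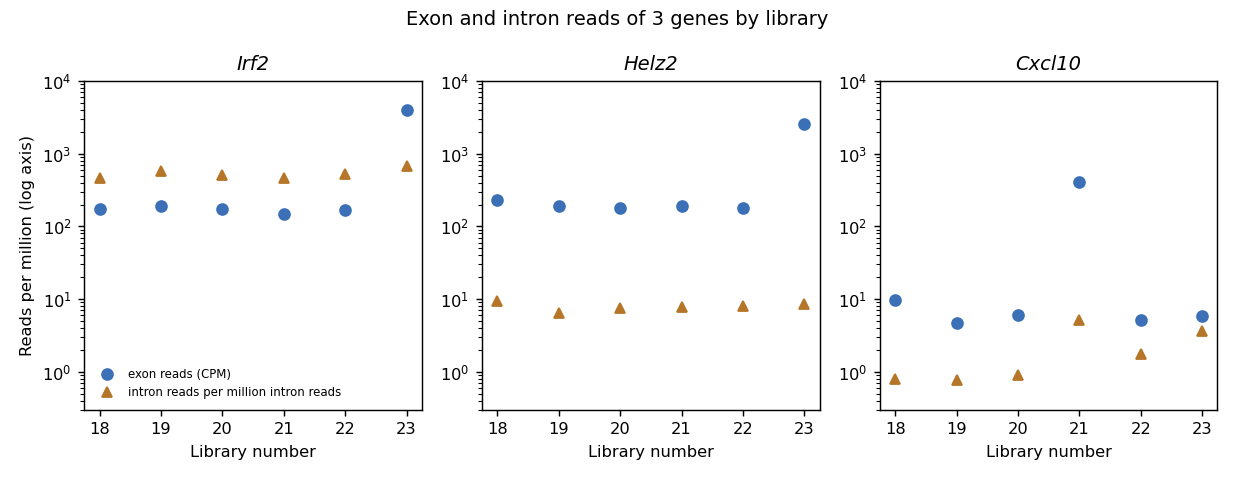
Circles give exon reads (CPM) and triangles intron reads (CPM of all intron reads) on a log y axis for Irf2, Helz2 and Cxcl10 in libraries 18 to 23 (x axis). The circles of Irf2 and Helz2 in library 23, at 3974 and 2588 CPM, stand far above the rest while the triangles, at 684 and 8.53, stand close to those of the other libraries, and for Cxcl10 both the circle (409 CPM) and the triangle (5.11, from 4 reads) are highest in library 21.

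The ratio of summed type I targets to summed GTPases differed between libraries mainly through Helz2. The 25 type I targets over the 10 GTPases gave 1.33, 1.04, 1.06, 1.11, 1.08 and 2.45 in CPM for libraries 18 to 23. Library 23 was highest, and that value rests on Helz2. Without Helz2 the ratios were 1.17, 0.929, 0.934, 0.977, 0.961 and 0.884, with library 18 highest and library 23 lowest. By RPKM without Helz2 they were 1.06, 0.756, 0.812, 0.770, 0.842 and 0.725, in which library 18 again stood highest and the other 5 lay below 1.

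The sums themselves moved little. All 44 genes together summed to 3819 CPM in library 20, the lowest, and 10385 CPM in library 23, but without Helz2, Irf2 and Cxcl10 from 3461 to 4022 CPM, or 1.16-fold. The GTPase sum was lowest in library 18 (1402 CPM) and highest in library 19 (1692 CPM, 1.21-fold) and the type I sum without Helz2 from 1344 to 1635 CPM (1.22-fold), with library 18 highest. The 14 antiviral effectors over the GTPases gave 0.265 in library 18 and 0.167 to 0.203 in the others. With 1 value per library and no genotype, these ratios have no test.

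**Figure D5:**
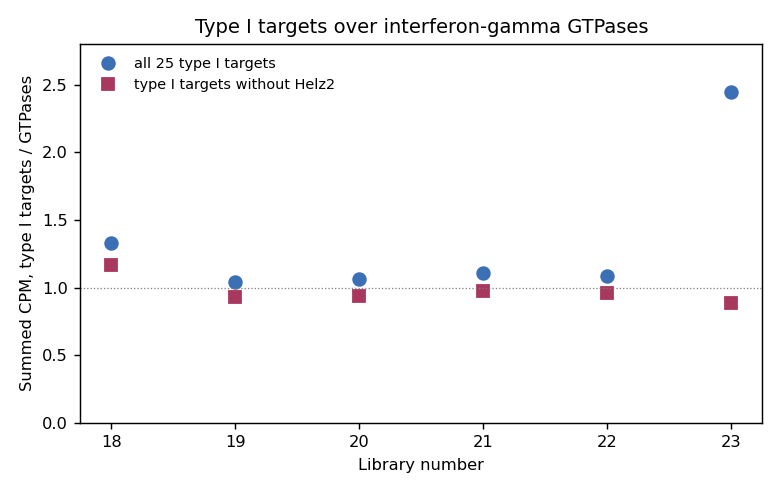
Points give the summed CPM of type I targets over that of the GTPases (y axis) in libraries 18 to 23 (x axis), as circles for all 25 targets and squares without Helz2; the dotted line marks a ratio of 1. Library 23 stands at 2.45 with Helz2 and at 0.884 without it.

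Of the interferons, only Ifng was read at depth. Of 9 interferon genes, Ifnb1, Ifna1, Ifna2, Ifna4 and Ifnl3 were at 0 in all libraries, where a count of 0 allows up to 0.282 CPM (library 19) or 3.62 CPM (library 21). Ifng, the interferon-gamma that iNKT cells release, stood at 56.0, 40.6, 152, 72.4, 130 and 52.7 CPM. Libraries 20 and 22 were high and library 19 lowest, 3.75-fold apart, while the GTPase sum was highest in library 19 and ranged 1.21-fold.

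The other genes of the pathway varied at shares to be read beside the 71.6% of all genes. Of 9 receptor chains and kinases, 7 were tested, 6 varied (85.7%) and 2 passed 2-fold (28.6%, near the 27.1% of all genes). The 3 with the most reads, a choice by median CPM that favours long genes here and in the lists that follow, were Jak1 (a kinase of both receptors) at 875 to 1030.0 CPM, Ifngr1, the ligand-binding chain, at 311 to 763 CPM, and the kinase Jak2 at 348 to 499.9 CPM. The second chain, Ifngr2, named here after its values were seen, had a median of 0.856 RPKM against 82.7 for Ifngr1 and 62.0 for Jak1, while the type I receptor chains Ifnar1 and Ifnar2 had medians of 11.7 and 13.2 RPKM. Of 9 brakes, all tested, 7 varied (77.8%), in a list that counts the type I targets Usp18 and Isg15 again. The 3 brakes with the most reads were the phosphatases Ptpn11 and Ptpn2 and the inhibitor Pias1, with medians of 164, 116 and 93.7 CPM. Per length Ptpn2 led them at 17.6 RPKM, with Pias1 at 11.2 and Ptpn11 at 9.88.

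Of 14 genes listed around the start of interferon production, not all of which start it, 11 were tested and 9 varied (81.8%, beside 71.6% of all genes). The 3 with the most reads were the nucleic acid sensor Zbp1 at 176 to 245 CPM, Trim30a at 160 to 200 CPM, and the kinase Ikbke at 299 CPM in library 21 and 109 to 163 CPM elsewhere. Per length their medians were 28.7, 21.5 and 6.61 RPKM. Of 12 further Gbp and Irg genes, 10 were in the table, 6 were tested and all 6 varied, beside 71.6% of all genes. The 3 with the most reads were Gbp9 at 196 to 223 CPM, Gbp6 at 163 to 223 CPM, of which few reads were unique, and Gbp5 at 84.4 to 103 CPM. Per length their medians were 18.8, 13.9 and 6.45 RPKM.

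In the median, the response genes held a smaller share of intron reads than all tested genes. The median share of intronic reads, over exon and intron reads together, was 20.7% over the 44 genes, 14.6% for the GTPases and 29.8% for the type I targets, beside 38.5% for all tested genes. It was under 10% in 9 genes, among them Dtx3l at 3.11% and Irf9 at 2.73%, and at least 50% in 4, namely Irf2 (72.2%), Mx2 (62.8%), Oas1a (62.3%) and Usp18 (51.6%). Intron length was not taken into account. Of the 44 genes, 18 overlap another gene of the table, 8 of them one with at least 200 reads. Reads in overlaps of opposite strands cannot be told apart without strand. Where both genes lie on the same strand, as Gbp4 with Gbp8 and Gbp9, strand would not separate them.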

How the data were processed

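Total RNA of sorted splenic iNKT cells was sequenced from QIAseq UPXome libraries, per the labels' protocols, with GRCm38 and mm10 named in the submitters' processing notes; the labels name no aligner, counter or strand setting. The authors deposited 1 table with exon read counts, the fraction of gene reads that are intronic, the ratio of unique to total exon reads and RPKM per library, per the file headers; 10 other columns of values per library were not used. Column names matched no label, so the planned comparison of genotypes was not run, and nothing ties libraries to separate animals. p-values measure differences between libraries over counting error only, and PCR reads are not independent molecules.

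CPM used TMM factors (edgeR 4.0.16, 9510 genes). Genes with at least 200 reads were tested by chi-square (5 degrees of freedom, scipy 1.17.1), checked on simulated Poisson counts. Unchanged genes in that simulation held counting error alone, so it cannot show how the test treats further variation between libraries. Intron reads were recovered from the exon count and the intron fraction. Overlaps used the table's coordinates. Intervals are 95% exact Poisson intervals, and a count of 0 allows 3 reads. Promoter letters are from RefSeq (GRCm38.p6).

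The members, lists and naming rule were chosen with earlier results of these data known. Given in full are, per class, the highest median CPM (at most 6 type I targets, 3 sensors, 5 factors and 6 GTPases), the 8 widest ranges and Cxcl10, and the 3 highest of each other list. Neutrophil markers summed to 0 to 4.22 CPM. 1 listed pathway gene is not reported here.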

Additional observations from a re-analysis of the deposited data

How the results depend on the processing

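The count of members varying between libraries was 33 of 41 with DESeq2 size factors (DESeq2 1.42.0), beside 71.6% of all genes. It was 34 of 41 with total exon reads (73.5% of all genes) and 32 of 41 on unique reads (71.0%). At a minimum of 60 reads it was 37 of 44 (69.6% of all genes), and at 1000 reads 25 of 28 (79.3%). With 1 library left out it was 28 to 33. Without library 18 it was 28 of 40 (63.2% of all genes), and without library 21 it was 33 of 41 (68.3%). The count over 2-fold was 12, 13, 16 and 13 by DESeq2 factors, total reads, RPKM and unique reads. Without the values in excess it was 10, and with 1 library left out 7 to 10, 7 being without library 23. Shares of all genes over 2-fold are not given for these alternatives. The ratio of type I targets to GTPases, highest over lowest library, was 2.35, and 1.57 by RPKM, 2.95 without Parp14 and Gbp4, 1.32 without Helz2, and 1.28 to 2.35 with 1 library left out, 1.28 being without library 23; Helz2 has its excess there. GTPases highest in library 19 numbered 3, but 6 with total reads and 5 by RPKM, and the cause was not tested. For total reads and RPKM no share of all genes highest in library 19 is given. Type I targets highest in library 18 numbered 8 to 10, again without such a share for the alternatives. Motif counts before the start alone were 18 (ISRE) and 12 (GAS), with no ISRE left in the 2 sensors. Of 429 repeated single-gene calls 19 were lost and 4 gained, in 13 members. Leaving out 1 library also ended the calls of Eif2ak2 (library 19, adjusted p = 0.407, chi-square), Ifit3 and Oas2 (library 18, 0.0532 and 0.124) and Gbp3 (library 18 or 22, at most 0.564), and Tgtp1 was lost in 5 alternatives (at most 0.364). The unique-read, excess, Helz2 and highest-library alternatives were chosen after seeing the data. No paired analysis was possible because the columns carry no replicate number; the genotype test, its replicate block, DESeq2, unfiltered and left-out-replicate alternatives were not run. Library 21, at 903524 reads, limits precision: there a count of 0 allows up to 3.62 CPM, and 11 Isg15 reads give 6.63 to 23.8 CPM.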

Other observations

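Near relatives of the described genes, picked by name after the table had been seen, were also read. Ifi27l2a, a small interferon-induced protein, stood at 245, 141, 149, 160, 134 and 147 CPM in libraries 18 to 23, with a median of 148 RPKM, above the 53.3 RPKM of Igtp. Library 18 was highest. Ifit1bl1, a relative of Ifit1, stood at 71.4, 99.0, 68.7, 72.4, 70.5 and 61.7 CPM, with a median of 14.4 RPKM against 6.70 for Ifit1. Its highest library was 19, whereas that of Ifit1 was 21. Ifi203, of the Pyhin family, lay between 287 and 329 CPM, while its relative Ifi204 lay between 3.62 and 10 CPM. Ifit3b lay between 8.73 and 14.8 CPM, with 81.6% unique reads. Ifi44l had 2 reads in all.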
